A study of Homo sapiens with 2 samples.

Results

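The protein-coding zinc finger genes of chromosome 19 whose symbol is ZNF followed by a number were compared between KDM4C-depleted and control oral cancer cells, in order along the chromosome. They were selected by position, biotype and symbol in the GENCODE annotation of GRCh38 and not by any measured value, and numbered 246 of the 58884 genes in the count table. RNA-seq was carried out on SAS cells, an established line of tongue squamous cell carcinoma, to ask how the histone demethylase KDM4C affects metastasis. The shKDM4C cells expressed a short hairpin RNA against KDM4C and the LKO cells carried the control vector pLKO.1. Both vectors were delivered by lentivirus, and the study's infected cells were selected with puromycin. Which of the study's KDM4C hairpins was present in the sequenced cells is not named. There was 1 library per condition, so no difference reported here has a replicate check, no test between conditions was possible, and clonal or culture differences within this single line cannot be told apart from the hairpin.

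C2H2 zinc finger proteins read DNA through tandem fingers in which a pair of cysteines and a pair of histidines hold a zinc ion. Most of those on chromosome 19 arose by tandem duplication, lie in clusters, and carry a KRAB domain at the amino terminus that binds TRIM28 (KAP1). TRIM28 in turn brings in the methyltransferase SETDB1 and HP1 proteins, which lay down and read H3K9me3, the repressive mark that KDM4 demethylases remove. Many KRAB zinc finger proteins bind and silence retrotransposons, and the bodies of the ZNF genes themselves are known to carry H3K9me3.

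The promoters of 4 members toward the ends of the range described below are shown as examples. ZNF333, ZNF681 and ZNF181 were among the lowest members in the shKDM4C library and ZNF274 was among the highest. Not every member ranked as far out is shown. All 4 hold the word marked here, which is not typical of called members. It was in 35.4% of promoters of lower members and 37.5% of those of higher members. They are the RefSeq promoters of GRCh38.p14, from 250 bases before to 50 bases after the transcription start, written 5′ to 3′ in the direction of the gene. ZNF333 is at chr19:14689798-14690097 on the plus strand, ZNF681 at chr19:23758842-23759141 on the minus strand, ZNF181 at chr19:34733993-34734292 on the plus strand and ZNF274 at chr19:58182811-58183110 on the plus strand. Capitals mark CCGGAAG, the core word of ETS factors, or its reverse complement CTTCCGG.
ZNF333: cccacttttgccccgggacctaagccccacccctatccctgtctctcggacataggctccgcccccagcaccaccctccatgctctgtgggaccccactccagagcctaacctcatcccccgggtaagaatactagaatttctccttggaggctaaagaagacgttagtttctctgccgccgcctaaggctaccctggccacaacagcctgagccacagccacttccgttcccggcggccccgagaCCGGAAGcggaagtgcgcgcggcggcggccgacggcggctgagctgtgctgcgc
ZNF681: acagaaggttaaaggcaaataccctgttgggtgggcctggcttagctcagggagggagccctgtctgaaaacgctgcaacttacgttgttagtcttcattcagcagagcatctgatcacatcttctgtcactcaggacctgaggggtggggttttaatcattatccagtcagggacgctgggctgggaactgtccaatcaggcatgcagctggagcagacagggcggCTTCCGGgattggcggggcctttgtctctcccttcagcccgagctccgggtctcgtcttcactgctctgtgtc
ZNF181: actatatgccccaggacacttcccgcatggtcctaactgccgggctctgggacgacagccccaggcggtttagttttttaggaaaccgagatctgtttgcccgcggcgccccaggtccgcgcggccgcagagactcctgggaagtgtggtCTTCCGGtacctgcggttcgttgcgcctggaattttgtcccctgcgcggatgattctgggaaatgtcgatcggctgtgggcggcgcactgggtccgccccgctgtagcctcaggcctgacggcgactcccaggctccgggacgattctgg
ZNF274: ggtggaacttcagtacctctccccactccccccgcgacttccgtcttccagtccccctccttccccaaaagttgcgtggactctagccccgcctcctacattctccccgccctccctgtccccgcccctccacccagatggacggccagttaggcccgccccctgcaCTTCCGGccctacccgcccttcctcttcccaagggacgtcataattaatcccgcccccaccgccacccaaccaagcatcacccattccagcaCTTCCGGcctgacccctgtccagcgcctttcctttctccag
The word began 4 bases before the start of ZNF333 on the strand of the gene, and 23 and 100 bases before the starts of ZNF681 and ZNF181 on the opposite strand. ZNF274 held it 2 times.

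The ETS word was more frequent in the promoters of the chromosome 19 ZNF genes than in those of other genes. Of the 246 members, 216 matched the promoter table by symbol, with 268 promoters, and 40.7% of these held CCGGAAG on either strand, against 13.4% of 1257 promoters of other protein-coding genes of chromosome 19. The share was 28.6% in 287 promoters of ZNF genes of other chromosomes and 10.3% in all 35116 promoters of the table. Between calls the shares were closer: 35.4% of 48 promoters of members that were lower in the shKDM4C library held the word, 37.5% of 8 promoters of members that were higher, and 42.9% of 133 promoters of members that were neither. Of the tested members with a single promoter in the table, the 61 with the word had a median log2 ratio of -0.08 and the 73 without it -0.25.

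Of the other words searched on both strands, each counted on its own, the GATA word AGATAA was in 5.97% of the member promoters and 10.3% of all promoters. It stood in 6 of the 48 promoters of lower members (12.5%) and in 3.76% of those of members that were neither. GGGCGG, the word of SP and KLF factors, was in 64.9% of member promoters and 45.0% of all. The CREB and ATF word TGACGTCA was in 3.73% against 1.85%, the NRF1 word GCGCATGCG in 3.36% against 1.92%, the YY1 word AAGATGGCG in 2.99% against 1.75%, and the ZNF143 word ACTACAATT in 1.49% against 0.336%. Member promoters had a median ratio of observed to expected CpG of 0.765, compared with 0.579 in all promoters. ZNF114 and ZNF473, both of which were higher in the shKDM4C library, were not in the promoter table.

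The libraries held 50627096 counts for shKDM4C and 57626616 for LKO. KDM4C itself had 242 counts in the shKDM4C library, against 1047 in the LKO library, or -1.85 on the log2 scale of shKDM4C over LKO, with a 95% counting interval of -2.06 to -1.65. Ratios were taken on library sizes scaled by TMM, which assumes that most genes do not differ, and their intervals are exact (Clopper-Pearson). The intervals cover counting error only, and copies made by PCR are not independent molecules. A gene was tested when it had at least 20 counts over both libraries together. Calls of lower or higher required a difference of 1.5-fold or more and an interval that did not reach 0 on the log2 scale. The 12 squamous markers examined summed to 2086 CPM in shKDM4C and 2335 CPM in LKO, with 3 lower and 2 higher. The 14 markers of blood, vessel, stromal, muscle and other lineages summed to 7.45 CPM in shKDM4C and 9.13 CPM in LKO, with CD3E and HBB at 0 in both libraries. Of these 14, 6 were tested, with 2 lower (ACTA2 and MLANA) and 2 higher (PECAM1 and VWF).

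More of the chromosome 19 ZNF genes were lower than higher in the shKDM4C library, and most were neither. Of the 246 members, 176 were tested. Of these, 43 were lower (24.4%), 10 were higher (5.68%) and 123 were neither. In the background of all 18078 tested genes, 15.7% were lower and 13.0% were higher. Their nearest comparison, the other protein-coding genes of the same chromosome, leaned the same way: of 709 tested, 152 were lower and 63 higher, or 21.4% lower and 8.89% higher. Of the 220 tested ZNF genes of other chromosomes, 41 were lower and 16 higher, or 18.6% lower and 7.27% higher.

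The median log2 ratio of the tested members was -0.17 (quartiles -0.59 and 0.18), with 108 genes below 0 and 68 above. It was -0.15 for the other genes of chromosome 19, -0.11 for ZNF genes of other chromosomes and -0.01 for all tested genes. With total counts or median-of-ratios factors in place of TMM, the medians of these ZNF genes, of their chromosome and of the other ZNF genes stayed below 0, while that of all tested genes was 0.0016 with median-of-ratios factors. When only genes with 200 counts or more in all were kept, the order of the first of these medians turned, with -0.05 for the members and -0.13 for the other genes of chromosome 19. At least 2-fold, 21 members were lower and 1, ZNF114, was higher, which is 11.9% and 0.568% of those tested. The shares at 2-fold were 8.89% lower and 5.64% higher for the other genes of chromosome 19, and 7.46% lower and 7.77% higher for all tested genes. Of the 70 members not tested, 31 had 0 counts in both libraries, where 0 counts allow up to 0.0609 CPM in shKDM4C and 0.0507 CPM in LKO, and 39 had between 1 and 19 counts in all. The intervals of 150 tested members reached less than 1.5-fold to either side. In RNA from whole cultures, fewer cells that express a gene and less RNA per cell cannot be told apart.

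**Figure D1:**
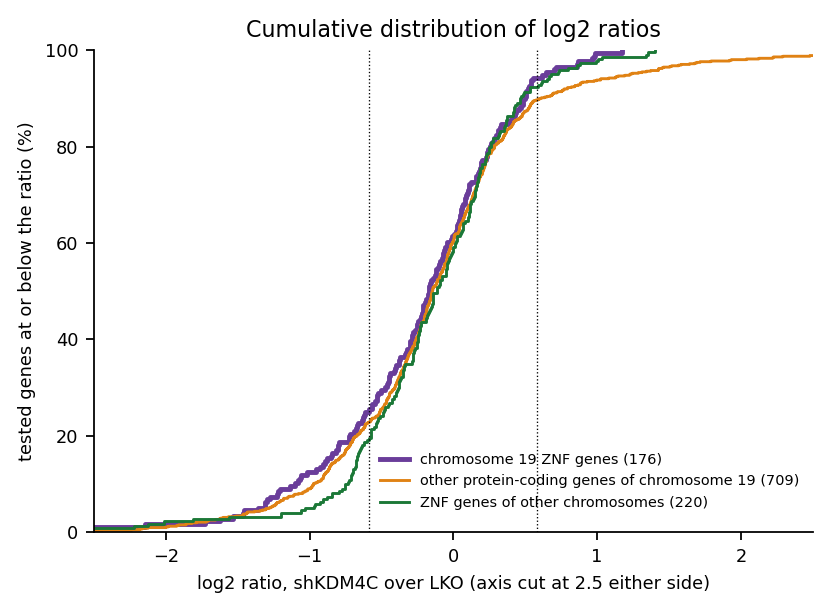
Cumulative share of tested genes (%, vertical axis) at or below each log2 ratio of shKDM4C over LKO (horizontal axis), for 176 chromosome 19 ZNF genes, 709 other protein-coding genes of the chromosome and 220 ZNF genes of other chromosomes, with dotted lines at a 1.5-fold difference. The curves lie close together near 0, where the medians are -0.17, -0.15 and -0.11, and the ZNF genes of both kinds have fewer genes far to the right than the other chromosome 19 genes.

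The summed level of the members was not lower in the shKDM4C library. Summed over all 246, they had 108973 counts in shKDM4C and 117436 in LKO, which after scaling is 2212 CPM in shKDM4C and 1986 CPM in LKO, putting shKDM4C at 111% of the LKO level, where the sum over all genes was at 105%. This sum rested on a few genes. The 10 members with the highest CPM held 46.5% of the member CPM in shKDM4C and 38.0% in LKO, while the median tested member had 5.60 CPM in shKDM4C and 5.78 CPM in LKO. Without ZNF114 and ZNF146 the sum was at 101% of the LKO level.

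ZNF114, the member with the highest level per exon length, was also the highest in ratio. It had 11552 counts in the shKDM4C library, against 6165 in the LKO library, or 235 CPM in shKDM4C and 104 CPM in LKO, a log2 ratio of 1.17 (interval 1.13 to 1.21). An antisense transcript that shares exon bases with it had 13 counts in each library. ZNF146 (OZF), a protein of 292 residues made up largely of 10 fingers and without a KRAB pattern, had 13008 counts in shKDM4C and 10627 in LKO. Its ratio of 0.56 (interval 0.52 to 0.59) was just under 1.5-fold. These 2 genes stood apart in level, at 56.2 and 53.6 RPKM in the mean of both libraries, with ZNF121 next at 11.7 RPKM. The other abundant members were ZNF317 (10.9 RPKM), ZNF507 (9.20 RPKM), ZNF714 (8.05 RPKM), ZNF260 (7.45 RPKM), ZNF134 (6.29 RPKM), ZNF561 (5.46 RPKM) and ZNF544 (5.17 RPKM). Of these 10, only ZNF114 was called, and only ZNF714 (-0.38) and ZNF544 (-0.33) had a ratio below 0.

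Several members that were higher have roles outside the silencing of repeats. ZNF473 (ZFP100), which takes part in forming the 3′ ends of histone mRNAs, had 1709 counts in shKDM4C and 1131 in LKO, a log2 ratio of 0.86 (interval 0.75 to 0.97). VRK3, a protein-coding gene on the opposite strand that shares exon bases with it, had 523 counts in shKDM4C and 884 in LKO. ZNF274 is known to bind the 3′ ends of other zinc finger genes and to bring SETDB1 to them. It had 779 counts in shKDM4C and 575 in LKO, a log2 ratio of 0.70 (interval 0.54 to 0.86). ZNF296, known in mouse cells as a partner of the pluripotency factor Klf4, had 155 counts in shKDM4C and 95 in LKO (log2 ratio 0.97, interval 0.59 to 1.35). ZNF671, which is often methylated in tumours and was picked out after its values were seen, had 94 counts in shKDM4C and 57 in LKO (log2 ratio 0.98, interval 0.50 to 1.49).

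Of the other higher members that averaged 100 counts or more, ZNF44 had 396 counts in shKDM4C and 261 in LKO (log2 ratio 0.86), ZNF530 had 534 counts in shKDM4C and 390 in LKO (0.72), ZNF559 had 1099 counts in shKDM4C and 844 in LKO (0.64), and ZNF426 had 1388 counts in shKDM4C and 1086 in LKO (0.62). Both ZNF559 and ZNF426 were under 1.5-fold with total counts in place of TMM. The last member called higher was ZNF442, with 30 counts in shKDM4C and 18 in LKO (log2 ratio 0.99, interval 0.11 to 1.93). ZNF562 (0.51), ZNF317 (0.51) and ZNF134 (0.50) had intervals above 0 and a ratio under 1.5-fold.

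Of the members that averaged 100 counts or more, those named as lowest were led by ZNF333. This gene, at 14.7 Mb outside the clusters, had 67 counts in shKDM4C and 268 in LKO, or 1.36 CPM in shKDM4C and 4.53 CPM in LKO, a log2 ratio of -1.73 (interval -2.14 to -1.34). ADGRE2, which shares exon bases with it on the opposite strand, had 62 counts in shKDM4C and 141 in LKO, and reads of the pair can be told apart only if strand was used in counting, which is not stated. ZNF554 had 51 counts in shKDM4C and 169 in LKO (log2 ratio -1.45). ZNF738 had 54 counts in shKDM4C and 167 in LKO (-1.36, interval -1.84 to -0.91), ZNF155 had 50 counts in shKDM4C and 150 in LKO (-1.31, interval -1.81 to -0.85) and ZNF428 had 90 counts in shKDM4C and 238 in LKO (-1.13, interval -1.51 to -0.78). ZNF428 is the member with the fewest finger matches, at 1 in 188 residues. All of these were under 5 CPM in both libraries.

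The 4 named low members with the most counts were ZNF91, ZNF675, ZNF254 and ZNF681. ZNF91, whose protein of 1191 residues holds 31 fingers and is known to restrain SVA retrotransposons, had 1404 counts in shKDM4C and 2593 in LKO, or 28.5 CPM in shKDM4C and 43.8 CPM in LKO, a log2 ratio of -0.62 (interval -0.72 to -0.53). ZNF675, known as a TRAF6-binding inhibitor of NF-kappaB signalling, had 842 counts in shKDM4C and 1878 in LKO (log2 ratio -0.89, interval -1.01 to -0.78). ZNF681 had 441 counts in shKDM4C and 1073 in LKO (-1.02, interval -1.18 to -0.86) and ZNF254 had 575 counts in shKDM4C and 1099 in LKO (-0.67, interval -0.82 to -0.52). These 4 are consecutive tested members, from position 23304991 to 24129968 of chromosome 19 in GRCh38. The remaining named low members were ZNF181 with 135 counts in shKDM4C and 340 in LKO (-1.07), ZNF627 with 240 counts in shKDM4C and 517 in LKO (-0.84) and ZNF112 with 167 counts in shKDM4C and 362 in LKO (-0.85).

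**Figure D2:**
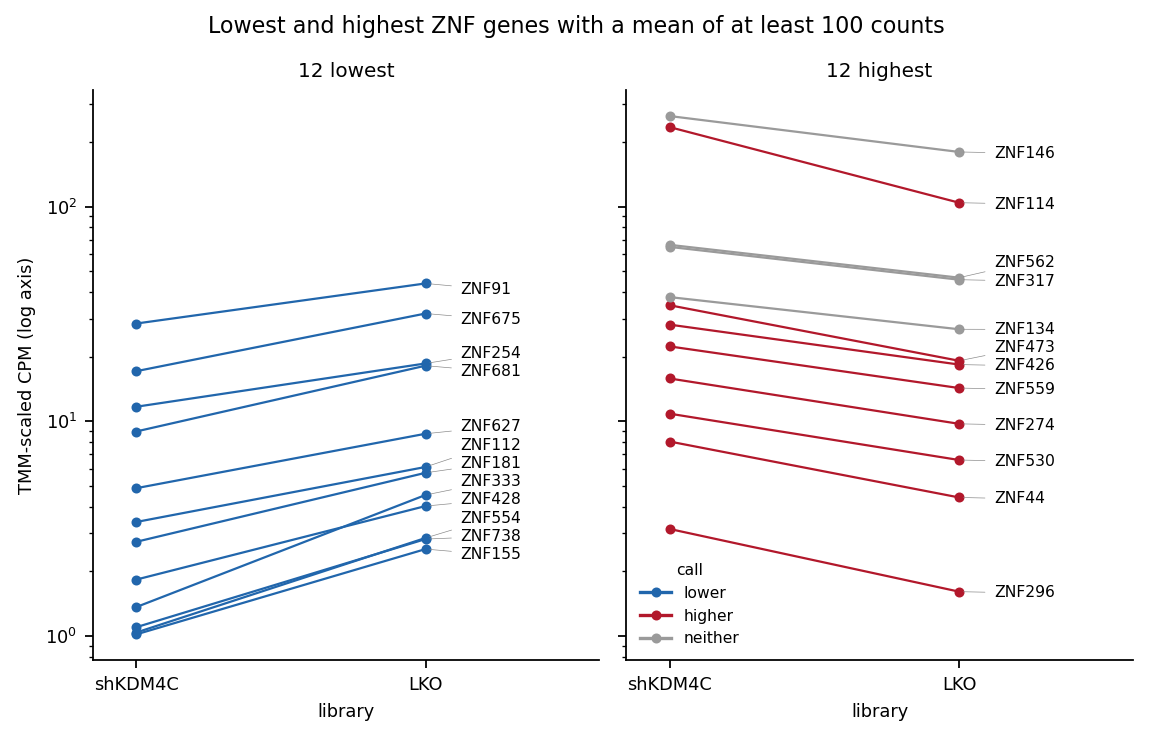
TMM-scaled CPM on a log axis in the shKDM4C library (left) and the LKO library (right) for the 12 lowest and 12 highest chromosome 19 ZNF genes that averaged 100 counts or more, ranked by the interval bound nearest to 0 and coloured by call. In LKO, ZNF91, ZNF675, ZNF254 and ZNF681 are between 18.1 and 43.8 CPM and the other 8 low genes under 10 CPM, and ZNF146 and ZNF114 stand above 100 CPM in both libraries.

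Members known to bind or silence retrotransposons include ZNF91, given above, and 4 others that were picked for this role after their values were seen. ZNF611, which also binds SVA elements, had 341 counts in shKDM4C and 397 in LKO (log2 ratio 0.04, interval -0.17 to 0.26). ZNF417 and ZNF587, a closely related pair that bind HERV-K elements, were near 0 in ratio. ZNF417 had 405 counts in shKDM4C and 501 in LKO (log2 ratio -0.04, interval -0.24 to 0.15), and ZNF587 had 1187 in shKDM4C and 1387 in LKO (0.04, interval -0.07 to 0.15). The reads of such a pair may be split between them. ZNF93, which restrains L1 elements, had 0 counts in both libraries. Outside that role, ZNF224, a repressor of the aldolase A gene that was likewise picked afterwards, had 178 counts in shKDM4C and 331 in LKO (log2 ratio -0.63, interval -0.90 to -0.36).

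Along the chromosome, a new cluster was begun wherever more than 1 Mb separated neighbouring members. This gave 16 groups, single genes included, of which 9 had at least 5 tested members and together held 235 members, 167 of them tested. The medians of these 9 clusters ran between -1.07 and 0.08. In 4 of them, the median log2 ratio was -0.50 or lower, and in the other 5 it lay between -0.19 and 0.08. Over all 16 groups, those too small to count among the 9 included, neighbouring tested members had the same sign in 93 of 161 pairs. With 108 of the 176 tested members below 0 and 68 above, many pairs share a sign whatever their position. The share that this lean alone would give was not computed. Across pairs, the log2 ratios of neighbours correlated at Pearson's r 0.25 and Spearman's rho 0.30. The pairs come from a single pair of libraries and are not independent.

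**Figure D3:**
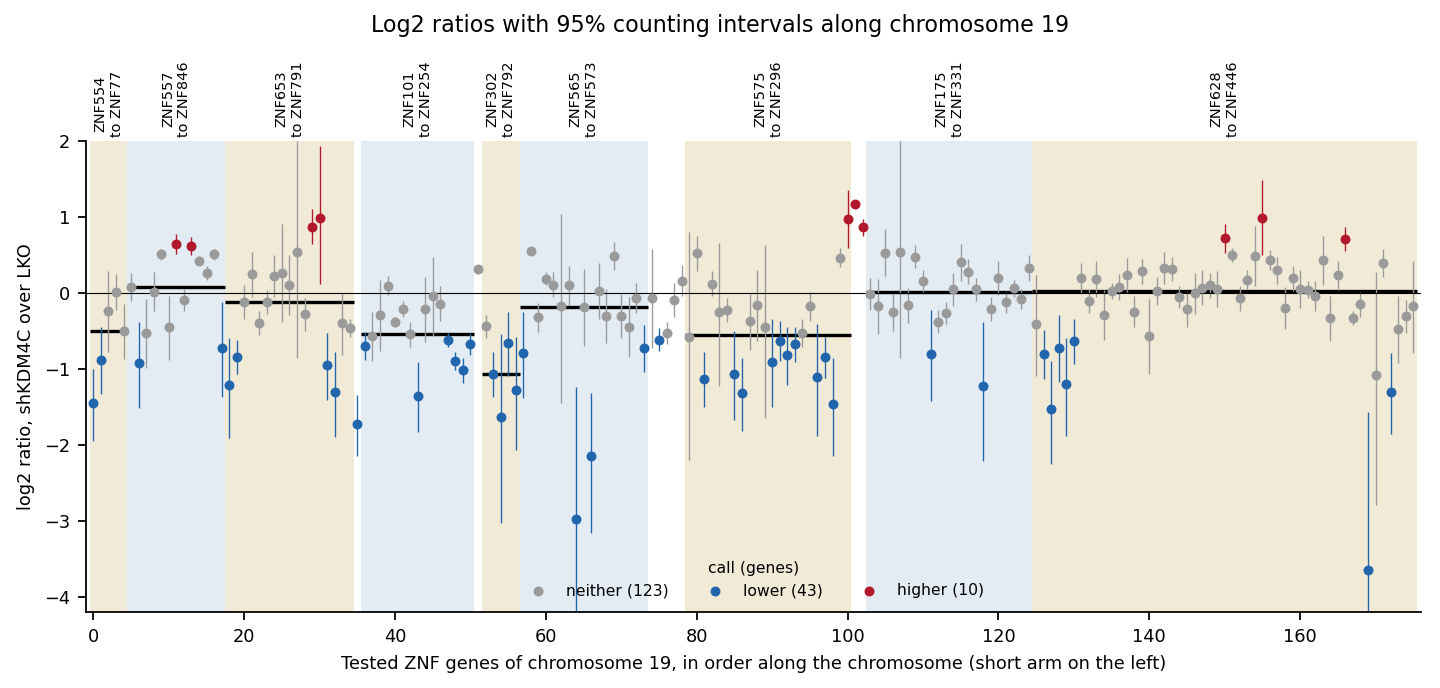
Log2 ratio of shKDM4C over LKO (vertical axis) of the 176 tested ZNF genes in order along chromosome 19 (horizontal axis, rank), with 95% counting intervals as thin lines that are cut off at the axis limits. Colour gives the call, shading marks the 9 clusters named by their first and last members, and black bars are cluster medians. The bars of the clusters from ZNF554, ZNF101, ZNF302 and ZNF575 lie at or below -0.50.

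The cluster from ZNF302 to ZNF792 at 34.7 to 35.0 Mb had the lowest median, -1.07. All 5 of its members were tested and below 0, and 4 were lower. ZNF302 had 574 counts in shKDM4C and 937 in LKO (log2 ratio -0.44) and ZNF30 had 74 counts in shKDM4C and 141 in LKO (-0.66). ZNF792 had 22 counts in shKDM4C and 65 in LKO (-1.28), and ZNF599 had 8 counts in shKDM4C and 31 in LKO (-1.63, interval -3.02 to -0.54). Summed over the cluster, with ZNF181 given above, the shKDM4C library was at 64.5% of the LKO level. No other tested protein-coding gene lay inside it.

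The cluster from ZNF101 to ZNF254, at 19.7 to 24.1 Mb, which holds ZNF91, had a median of -0.55, with 14 of its 15 tested members below 0, 6 lower and 0 higher. In contrast to those of the other clusters with low medians, its 15 tested members were well expressed, with a median of 8.95 CPM in shKDM4C and 14.4 CPM in LKO. ZNF101 had 367 counts in shKDM4C and 713 in LKO (log2 ratio -0.69), ZNF708 had 486 counts in shKDM4C and 853 in LKO (-0.55) and ZNF14 had 128 counts in shKDM4C and 228 in LKO (-0.57). ZNF430 was the exception, with 1000 counts in shKDM4C and 1127 in LKO (0.09, interval -0.03 to 0.22). Summed over the cluster, the shKDM4C library had 10483 counts and the LKO library 17500, which after scaling put shKDM4C at 71.9% of LKO. Of its 37 members, 22 were not tested, 13 of them with 0 counts in both libraries. Its genes are close paralogs, and how reads that map to several of them were counted is not stated.

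The cluster from ZNF575 to ZNF296 at 43.5 to 45.1 Mb had the most calls, with 10 lower and 1 higher of 22 tested, and a median of -0.56. Most of its lower members are neighbours. ZNF221 had 36 counts in shKDM4C and 91 in LKO (log2 ratio -1.06), ZNF284 had 38 counts in shKDM4C and 86 in LKO (-0.90), ZNF225 had 88 counts in shKDM4C and 187 in LKO (-0.82) and ZNF234 had 242 counts in shKDM4C and 464 in LKO (-0.67). ZNF285 was the lowest, with 28 counts in shKDM4C and 94 in LKO (-1.47, interval -2.15 to -0.86), and ZNF235 had 23 counts in shKDM4C and 60 in LKO (-1.10). Of its 4 members above 0, ZNF296 is given above and was the only one called. ZNF576 had 344 counts in shKDM4C and 288 in LKO (0.52, interval 0.29 to 0.75), ZNF180 had 1123 counts in shKDM4C and 981 in LKO (0.46, interval 0.33 to 0.58) and ZNF283 had 571 counts in shKDM4C and 631 in LKO (0.12, interval -0.05 to 0.29). The 21 other tested genes of its whole span had a median of 0.05, with 3 lower and 4 higher, and were not matched in position to its members. ZNF296 lies past a gap of more than 0.5 Mb. Split there, the stretch from ZNF575 to ZNF180 had a median of -0.58. The cluster was weakly expressed, with a median of 1.97 CPM in shKDM4C and 2.95 CPM in LKO.

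The short cluster from ZNF554 to ZNF77 at 2.8 to 2.9 Mb had a median of -0.50, with 2 of 5 lower. Beside ZNF554, ZNF555 had 65 counts in shKDM4C and 144 in LKO (log2 ratio -0.88), ZNF77 had 104 counts in shKDM4C and 177 in LKO (-0.50), ZNF556 had 53 counts in shKDM4C and 75 in LKO (-0.23, interval -0.77 to 0.29) and ZNF57 had 271 counts in shKDM4C and 324 in LKO (0.01, interval -0.23 to 0.24).

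The remaining clusters were mixed or near 0. From ZNF557 to ZNF846 at 7.1 to 9.8 Mb, the median was 0.08, with 2 lower and 2 higher of 13. Split at a gap of 0.5 Mb, the stretch from ZNF414 to ZNF846 had a median of 0.26. The 23 other tested genes in the whole span, from INSR to HNRNPM, had a median of -0.18 with 7 lower and 1 higher. They were not matched in position to the ZNF genes. The lowest member of this cluster was ZNF358, with 40 counts in shKDM4C and 92 in LKO (-0.93). From ZNF653 to ZNF791 at 11.5 to 12.6 Mb, 4 were lower and 2 higher of 17, with a median of -0.12 and ZNF443 lowest among them by its interval at 38 counts in shKDM4C and 114 in LKO (-1.31). From ZNF565 to ZNF573 at 36.2 to 37.8 Mb, 4 were lower of 17, with a median of -0.19. ZNF345 had 13 counts in shKDM4C and 71 in LKO there (-2.14, interval -3.16 to -1.32), and ZNF850 had 2 counts in shKDM4C and 23 in LKO (-2.97, interval -6.39 to -1.24). From ZNF175 to ZNF331 at 51.6 to 53.6 Mb, the median was 0.02, or -0.06 with total counts in place of TMM, and 2 of 22 were lower, with ZNF320 at 15 counts in shKDM4C and 43 in LKO (-1.22). ZNF331, an imprinted gene at the end of that cluster, had 0 counts in both libraries, and 17 of its 39 members were not tested.

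The last and largest cluster, from ZNF628 to ZNF446 at 55.5 to 58.5 Mb, had a median of 0.03, or -0.05 with total counts, over 51 tested members and was divided at its widest gap, 0.52 Mb. In the first stretch, from ZNF628 to ZNF835 at 55.5 to 56.7 Mb, 5 of 10 tested members were lower and 0 higher and the median was -0.52. These 5 were ZNF579, with 119 counts in shKDM4C and 250 in LKO (log2 ratio -0.80), ZNF580 with 146 counts in shKDM4C and 273 in LKO (-0.64), ZNF865 with 68 counts in shKDM4C and 135 in LKO (-0.72), ZNF784 with 29 counts in shKDM4C and 81 in LKO (-1.20) and ZNF524 with 25 counts in shKDM4C and 88 in LKO (-1.53). In the second stretch, from ZNF264 to ZNF446 at 57.2 to 58.5 Mb, 2 of 41 were lower and 3 higher and the median was 0.05. Its lower members were ZNF132 with 41 counts in shKDM4C and 122 in LKO (-1.30) and ZNF497 with 1 counts in shKDM4C and 22 in LKO (-3.64, interval -9.56 to -1.57). Its higher members were ZNF530, ZNF671 and ZNF274.

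**Figure D4:**
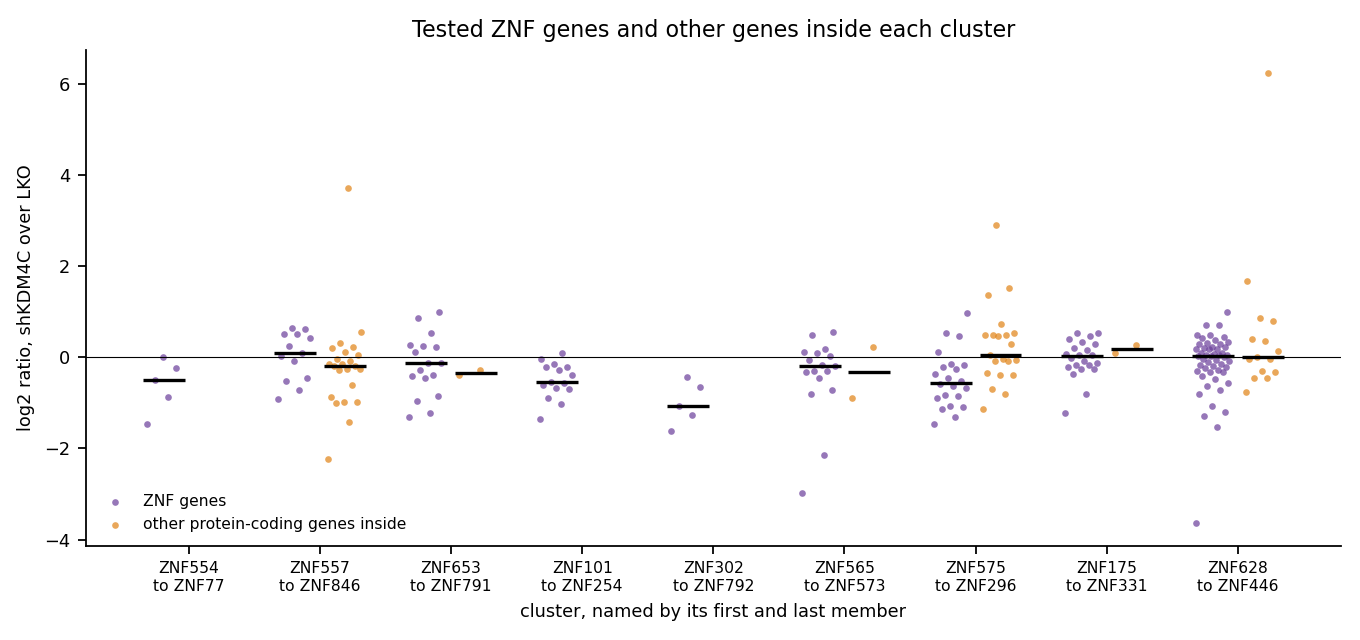
Log2 ratio of shKDM4C over LKO (vertical axis) of the tested ZNF genes (purple, left) and of the other tested protein-coding genes that lie inside each cluster (orange, right) for the 9 clusters in order along the chromosome, with black bars at the medians. In the cluster from ZNF575 to ZNF296 the medians are -0.56 and 0.05, and in the cluster from ZNF557 to ZNF846 they are 0.08 and -0.18. No other gene was tested inside the clusters from ZNF554, ZNF101 and ZNF302. The orange genes include ZFP14, ZFP30, ZSCAN5A and ZSCAN22, and were not matched in position to the ZNF genes of their cluster.

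Over all 9 clusters, the 65 other tested genes inside them had a median of -0.04 with 12 lower and 7 higher. Among these 65 are the C2H2-named genes ZFP14, ZFP30, ZSCAN5A and ZSCAN22. The 644 other tested protein-coding genes of the chromosome outside the clusters had a median of -0.15 with 140 lower and 56 higher. The members inside the clusters had a median of -0.17 with 41 lower and 8 higher. The 9 tested members outside the clusters had 2 lower, ZNF333 and ZNF780B (533 counts in shKDM4C and 981 in LKO, log2 ratio -0.62), and 2 higher, ZNF114 and ZNF473.

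The ratio of a member moved with its level. By mean level per exon length in both libraries, the lowest tertile of the tested members (59 genes at up to 0.576 RPKM) had 26 lower and 2 higher, with a median log2 ratio of -0.47. The middle tertile (58 genes) had 12 lower and 4 higher and the median was -0.09. The highest tertile (59 genes above 1.81 RPKM) had 5 lower and 4 higher and the median was 0.05. Across the 176 genes, level and log2 ratio correlated at Spearman's rho 0.44 and Pearson's r 0.27, where all points share the same libraries and genes with few counts have the widest intervals. Other protein-coding genes of chromosome 19 cut at the same levels had a different order. The 204 at the low level had 54 lower and 35 higher and the median was -0.10, the 140 at the middle level had 47 lower and 11 higher and the median was -0.32, and the 365 at the high level had 51 lower and 17 higher and the median was -0.07. Their rho was 0.10.

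**Figure D5:**
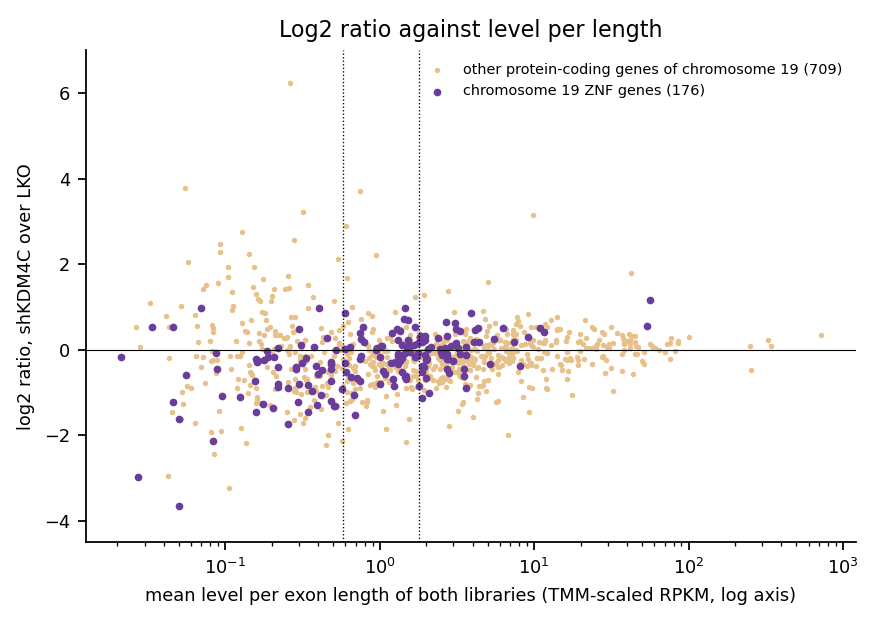
Log2 ratio of shKDM4C over LKO (vertical axis) against the mean level per exon length in both libraries (TMM-scaled RPKM, log axis) for 176 chromosome 19 ZNF genes (purple) and 709 other protein-coding genes of the chromosome (tan), with dotted lines at the levels that cut the ZNF genes into tertiles. Left of the first line most purple points are below 0, with a median of -0.47, and right of the second line their median is 0.05.

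Among members that averaged 100 counts or more, 24 of 135 were lower (17.8%) and 8 higher (5.93%). At the same minimum, the other genes of chromosome 19 had 19.8% lower and 5.14% higher, and all tested genes 14.9% lower and 8.46% higher. The clusters from ZNF101 to ZNF254 and from ZNF575 to ZNF296 then each held 6 of the 24, out of 12 and 14 such members. In the highest tertile by level, 4 of the 5 lower members were of the cluster from ZNF101 to ZNF254. These were ZNF91, ZNF675, ZNF681 and ZNF254, and the other was ZNF428, of the cluster from ZNF575 to ZNF296. The clusters differed in level too. Among the 4 with a median ratio of -0.50 or lower, the median level per length of tested members was 0.344 RPKM in the cluster from ZNF554, 0.677 RPKM in that from ZNF302, 0.701 RPKM in that from ZNF575 and 1.99 RPKM in that from ZNF101. Among the other 5, it was 0.592 RPKM in the cluster from ZNF565 and 0.595 RPKM in that from ZNF653, whose median ratios were -0.19 and -0.12, and 1.39 RPKM in that from ZNF628, 1.66 RPKM in that from ZNF175 and 2.70 RPKM in that from ZNF557. The part of level in the cluster medians was not tested.

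Features of the encoded proteins and transcripts were also set beside the ratios. The members' canonical proteins held between 1 and 36 finger matches, with a median of 12. Of tested members with 1 to 10 fingers, 12 of 63 were lower and 5 higher. Of those with 11 to 14, 14 of 63 were lower and 4 higher, and of those with 15 to 31, 17 of 50 were lower and 1 higher. Across the 176 genes, finger number and log2 ratio correlated at rho -0.05. A KRAB A box pattern was found in 181 of 246 members. Tested members with it had 21 of 122 lower (17.2%) and a median of -0.09, whereas those without it had 22 of 54 lower (40.7%) and a median of -0.43. This pattern needed a tryptophan that most genes of the cluster from ZNF575 to ZNF296 lack. Without that letter, a pattern chosen after the data were seen, 198 members matched. Among tested members, 30 of 137 with this looser pattern were lower (21.9%, median -0.17) and 13 of 39 without it (33.3%, median -0.33). In all tested genes, 15.7% were lower. The SCAN pattern was found in 3 members.

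Exons of the members were poorer in G and C than those of their chromosome, with a median of 43.7% against 59.5%. Among the members, the ratio was alike across GC content: the tertiles from low to high had 14, 14 and 15 lower members and medians of -0.21, -0.12 and -0.20, with rho -0.02. In the other genes, their own tertiles had medians of 0.04, -0.18 and -0.20. Exon length gave medians of -0.25, -0.08 and -0.12 in members, with rho 0.08. Of the tested members, 108 share exon bases with another annotated gene, on either strand. These had a median of -0.17 with 27 lower and 4 higher, and the 68 that share none had a median of -0.12 with 16 lower and 6 higher.

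Transcripts of the silencing machinery, listed together with the KDM4 demethylases, were mostly not called. The list of 31 genes, all tested, held 6 lower genes (19.4%) and 0 higher ones, and its median log2 ratio was -0.13. Of all tested genes, 15.7% were lower and 13.0% were higher. The figures of the list include KDM4A, KDM4B, KDM4C and KDM4D, whose proteins remove H3K9me3 rather than lay it down. KDM4C, the target of the hairpin, is among the 6, so its call reflects the design. TRIM28, the corepressor that KRAB domains bind, had 10700 counts in shKDM4C and 13339 in LKO (log2 ratio -0.05, interval -0.09 to -0.02). SETDB1 had 1171 counts in shKDM4C and 1665 in LKO (-0.24). The HP1 genes CBX1, CBX3 and CBX5 had log2 ratios of 0.28, 0.31 and -0.22. Apart from KDM4C, the lower genes were the H3K9 methyltransferase genes EHMT2, with 1421 counts in shKDM4C and 3203 in LKO (-0.91), and SUV39H1, with 408 counts in shKDM4C and 784 in LKO (-0.68), the DNA methyltransferase gene DNMT1 with 9423 counts in shKDM4C and 18334 in LKO (-0.70), MPHOSPH8, a subunit of the HUSH silencing complex, with 3629 counts in shKDM4C and 6914 in LKO (-0.67), and the demethylase gene KDM4B with 609 counts in shKDM4C and 1154 in LKO (-0.66).

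Of 15 other C2H2-named genes of chromosome 19, 4 were tested. ZSCAN5A had 369 counts in shKDM4C and 138 in LKO (log2 ratio 1.68, interval 1.40 to 1.98), a larger ratio than that of any tested ZNF member, and ZFP14 had 32 counts in shKDM4C and 72 in LKO (-0.89). ZFP30 had 641 counts in shKDM4C and 658 in LKO (0.23). The imprinted gene PEG3 had 2 counts in shKDM4C and 0 in LKO.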

How the data were processed

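RNA from the shKDM4C and LKO SAS cells was sequenced, 1 library each. Reads were trimmed with Trimmomatic, aligned to GRCh38 (hg38) with HISAT2 and counted with featureCounts, by the study's methods and the submitters' processing notes, which also list DESeq2 and, for quality control, FastQC and MultiQC, and CASAVA. Versions, annotation release, strand setting and treatment of multiply mapped reads: not given in the sources used here. Counts of close paralogs and overlapping genes are therefore less certain. The authors deposited whole-number read counts per gene, which were used, and tables of their own comparison (fold changes and p-values), which were not.

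Gene IDs were matched to GENCODE v44 (58472 of 58884). R 4.3.3 was used with edgeR 4.0.16 to scale library sizes by TMM. Alternatives were the plain totals and DESeq2 1.42.0 factors. The log2 ratio used a prior count of 0.5. CPM and RPKM (per kilobase of merged exons) were computed from these sizes. No p-value was computed. Ratios, intervals and calls were tested on simulated Poisson counts with known fold changes. These held no spread between cultures and no PCR copies, so only the computation was checked. Fingers and KRAB and SCAN patterns were searched in proteins translated from the Ensembl canonical coding sequences of GENCODE, in place of the RefSeq proteins first planned. Named are KDM4C, the 12 lowest and 12 highest members with a mean of at least 100 counts, in order of whichever interval bound lay nearer to 0, the 10 highest by level per length, the lowest and highest called member of each cluster, and the listed genes. Other members were named for their role, their call or their cluster after their values were seen. The members and lists were chosen with earlier results of these data known.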

Additional observations from a re-analysis of the deposited data

How the results depend on the processing

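With total counts, the medians of the clusters from ZNF175 and from ZNF628 turned to -0.062 and -0.050, that of the other chromosome 19 genes was -0.22, and ZNF559 (0.57) and ZNF426 (0.54) were no longer called. With at least 200 counts, 24 of 135 members were lower (17.8%). The median of the members was then -0.047, against -0.13 for the other chromosome 19 genes, so that the order of those medians turned. At a fold of at least 2, 21 were lower and 1 higher. Without members that share exon bases, 16 of 68 were lower (23.5%) and 6 higher (8.82%), against 24.4% and 5.68% of all tested members. Split at 0.5 Mb, the first stretch of the cluster from ZNF628 had a median of -0.52, the stretch from ZNF414 to ZNF846 0.26 and that from ZNF575 to ZNF180 -0.58. Of the alternatives chosen after seeing the data, the highest tertile by level held 5 lower members, and without ZNF146 and ZNF114 the summed member CPM was 101% of that of LKO. Of 72 values of named members under other scalings, 70 kept their direction and call and the other 2 are given above. The cause of these shifts was not tested, apart from the smaller numbers of genes left by each filter.

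Depth limits the weak members, 70 of which were not tested. No paired analysis was possible because each condition had 1 library, and leaving out a library was not possible either.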
